A study of Danio rerio with 12 samples.

Results

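Fatty acid binding proteins are small cytosolic carriers of long-chain fatty acids and other lipids, and their genes were examined here in livers of adult AB wild type zebrafish. All probes whose current gene symbol begins with fabp were taken, whatever their values, which gave 14 of 12275 probes and 7 of 6684 named genes. These were the liver gene *fabp10a* (2 probes), the intestinal genes *fabp1b.1* (3 probes), *fabp2* (2 probes) and *fabp6* (1 probe), and *fabp4a* (2 probes, *fabp11a* in the array's annotation), *fabp3* (1 probe) and *fabp7a* (3 probes). The zebrafish gene table of RefSeq lists 12 such genes, and *fabp1a*, *fabp1b.2*, *fabp4b*, *fabp7b* and *fabp10b* were not analysed here.

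Males and females were fed for 28 days with a feed that held either 0 or 25% maize, which replaced wheat, and every group also received live *Artemia* nauplii. Each sample was a pool of the livers of 1 sex from 1 replicate of 10 males and 10 females, so that pools rather than single fish are the units of replication. There were 3 pools each of females on 0% maize (replicates 1, 2 and 3), females on 25% maize (replicates 2, 3 and 4), males on 0% maize (replicates 1, 3 and 4) and males on 25% maize (replicates 1, 2 and 3). Since both sexes of a replicate shared a tank, the 12 pools came from 8 tanks, and in 4 of these (replicates 1 and 3 on 0% maize and replicates 2 and 3 on 25%) both the female and the male pool were used. Two-colour Agilent arrays compared the pools in a closed loop of 12 arrays, with each pool labelled once in Cy5 and once in Cy3. All 10 arrays with both sexes paired females of 1 feed with males of the other, so none compared the sexes on the same feed. Only 1 array with 2 female pools and 1 array with 2 male pools compared the feeds within a sex. Sex differences on 1 feed, diet changes within 1 sex and the interaction of sex and diet all run through these arrays. The comparisons address whether maize in the feed changed liver transcript levels, and how the sexes differed on either feed.

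In vertebrates each tissue has its own set of these carriers, which hold the lipid in a beta-barrel pocket and deliver it to membranes, to oxidation and esterification, and to nuclear receptors of the PPAR family. *fabp10a* encodes the abundant basic-type carrier of fish hepatocytes, which also binds bile acids, and its promoter is widely used to mark zebrafish liver. *fabp1b.1* and *fabp2* are carriers of the absorptive cells of the gut, where dietary fat is taken up, and *fabp6* is the bile acid carrier of the ileal type. *fabp4a*, *fabp3* and *fabp7a* are named after the adipocyte, heart and brain carriers of mammals.

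Levels are given on a log2 scale relative to the mean of the 12 pools, so they compare pools for 1 gene and never 1 gene with another. A log ratio holds no absolute level, and whether a gene was near background in a pool could not be read from it. The deposited ratios were taken as Cy5 over Cy3, a likely but unstated direction, on the basis that 470 of 470 values of 47 vitellogenin probes (the female yolk precursor) on the 10 arrays with both sexes then had the higher level in females. In pooled tissue, fewer cells of a type and less RNA per cell cannot be told apart. The pools also differed between the sexes in markers of several cell types. Of the measured hepatocyte genes 18 of 20 were lower and 1 was higher in females, of the enterocyte genes 16 of 21 were lower and 1 higher, of the exocrine pancreas genes 19 of 20 were lower, of the erythrocyte genes 6 of 6 were lower, and of the ovary and oocyte genes 19 of 19 were higher (limma, adjusted p under 0.05). Over all genes 70.3% passed, 32% as lower and 38.3% as higher. Other lists ranged from 1 of 11 (leukocyte and macrophage) and 3 of 9 (skeletal and heart muscle) lower to 6 of 7 (bile duct, 1 higher) and 4 of 4 (endothelial) lower. The mean level of the ovary and oocyte genes lay between 1.02 and 2.31 in the female pools and between -1.90 and -1.04 in the male pools.

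More of the family passed the test for sex than for diet. Between females and males, 5 of the 7 genes passed the threshold and all 5 were lower in females, namely *fabp10a*, *fabp6*, *fabp2*, *fabp1b.1* and *fabp4a*, while *fabp3* and *fabp7a* did not pass (limma, Benjamini-Hochberg over all genes). Over all genes 70.3% passed in this comparison, 32% as lower and 38.3% as higher in females, so the share of the family that passed in either direction was close to that of all genes. With 25% against 0% maize independent of sex, 0 of the 7 genes passed by limma, against 4.94% of all genes, and 0 of 7 had an unadjusted p under 0.05, against 17.2% of all genes. The 6 female and 6 male pools did not overlap for *fabp10a* and *fabp4a*, and 38.6% of all genes showed such a separation.

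**Figure D1:**
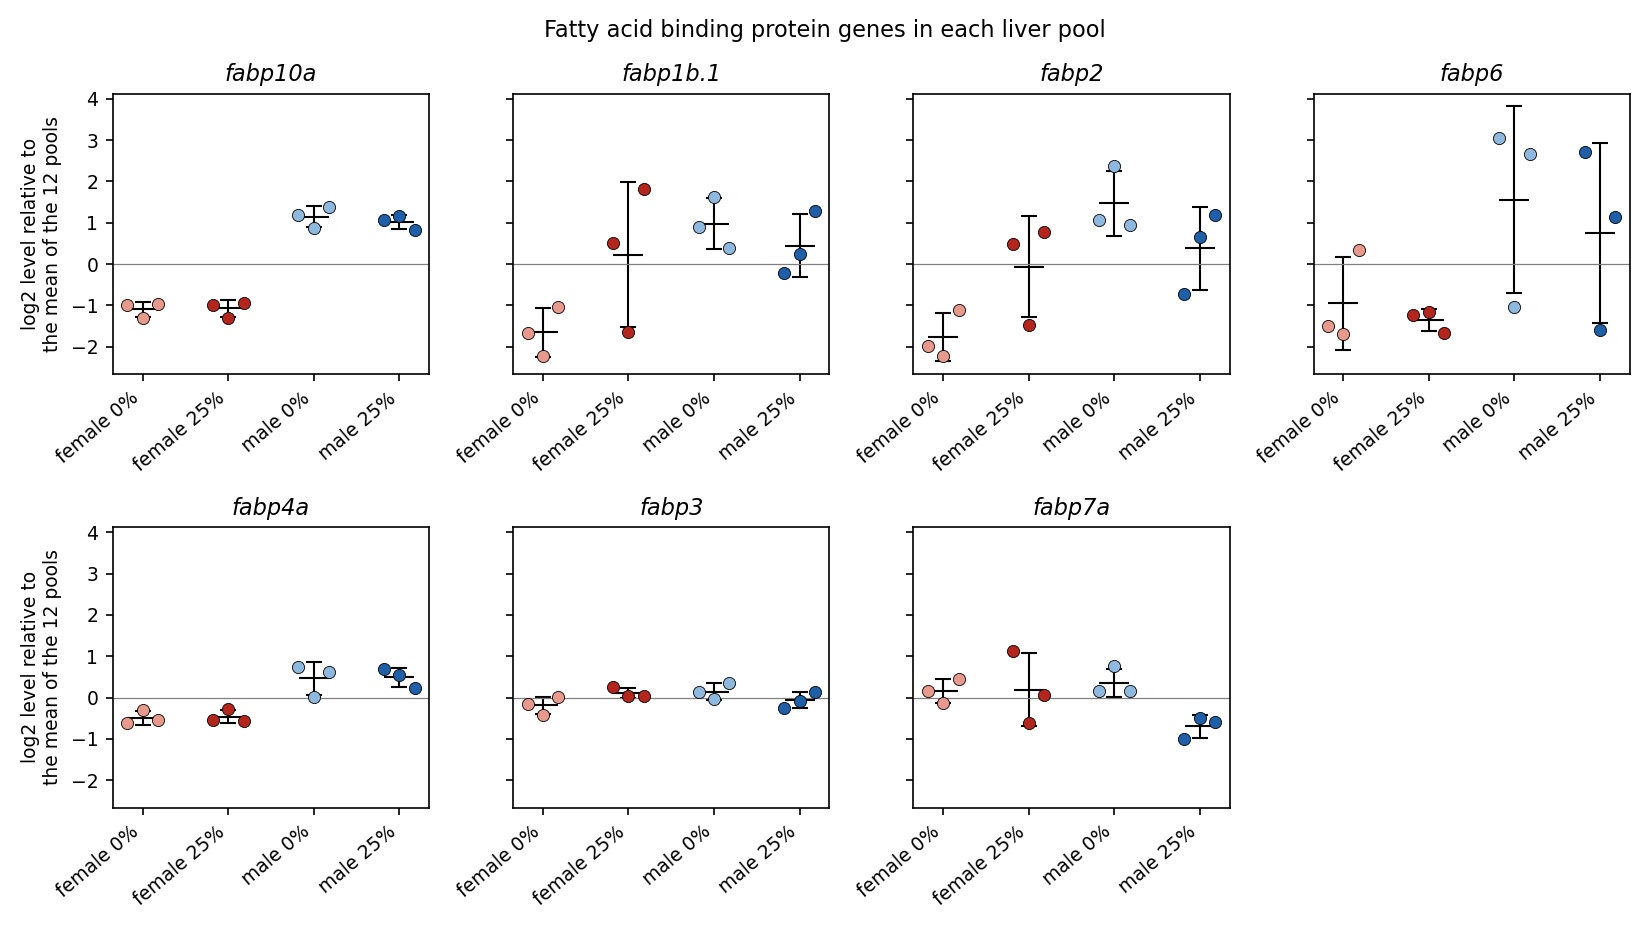
Log2 level of each measured fatty acid binding protein gene in the 12 liver pools (1 point per pool, relative to the mean of the 12 pools), with the mean and SD of the 3 pools of each group of sex and maize level. *fabp10a* and *fabp4a* separate the sexes completely, *fabp1b.1*, *fabp2* and *fabp6* spread widely within groups, and *fabp3* stays between -0.41 and 0.35 in every pool.

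The liver gene *fabp10a* had the clearest pattern. In females on 0% maize its level was -1.002, -1.30 and -0.97 in replicates 1, 2 and 3, and in females on 25% maize it was -0.99, -1.30 and -0.93 in replicates 2, 3 and 4. In males on 0% maize it was 1.195, 0.87 and 1.39 in replicates 1, 3 and 4, and in males on 25% maize 1.06, 1.17 and 0.82 in replicates 1, 2 and 3. Every male pool was thus above every female pool by far more than the pools of a group differed among themselves. The means were 1.15 ± 0.26 in males on 0% maize, 1.02 ± 0.18 in males on 25%, -1.07 ± 0.20 in females on 25% and -1.09 ± 0.18 in females on 0% (SD, n = 3 pools each). In this order only the step from males on 25% to females on 25% exceeded the spread. Transcripts were 4.53-fold lower in females, a log2 difference of -2.18 ± 0.11 (SE, limma, adjusted p = 1.02e-07), and an exact two-sided permutation of the sexes within diets over the 12 pools gave p = 0.005, the smallest it can give. The difference was 4.92-fold on 0% maize (adjusted p = 7.16e-06) and 4.18-fold on 25% maize (adjusted p = 3.63e-05).

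Both *fabp10a* probes gave the sex difference, at -2.05 and -2.31 on the log2 scale (limma over all probes, adjusted p = 6.04e-08 and 1.31e-07), and within a pool they lay at most 0.31 apart. Only 0.419% of all genes had a lower sex difference than *fabp10a*. Among the 20 measured hepatocyte genes, whose median sex difference was -1.43 on the log2 scale, 2 had a lower one, the plasma protein genes *apoa2* (-2.44) and *ahsg2* (-2.26). The hemopexin gene *hpxa*, which the list named by another symbol and so did not count, also had a lower one (-2.99 ± 0.12, SE). The mean level of the hepatocyte genes lay between -0.88 and -0.55 in the female pools and between 0.58 and 0.84 in the male pools, so hepatocyte genes as a list and *fabp10a* moved the same way between the sexes. Within a sex the Pearson correlation was -0.05 over the 6 female pools and 0.30 over the 6 male pools (descriptions, without a test). The list varied little there, with an SD of 0.09 and 0.003 in females on 0 and 25% maize and of 0.13 and 0.01 in males. Over the 6 pools of a sex the list spanned the ranges given above, and no close parallel with *fabp10a* was seen there. With 6 pools these correlations are imprecise. The genes most like *fabp10a* over the 12 pools were *hgd* (r = 0.996), an enzyme of tyrosine breakdown, *hpxa* (r = 0.991), the plasma haem carrier hemopexin, and *pmepa1* (r = 0.991), a membrane protein. Of these *hgd* also kept to it within the sexes, at 0.93 over the 6 female and 0.91 over the 6 male pools, against 0.60 and 0.73 for *hpxa* and 0.60 and 0.71 for *pmepa1*. A correlation above 0.9 with *fabp10a* was found for 4.37% of all genes. For every member the most similar genes were picked over the same 12 pools. High values within a sex therefore follow in part from that choice. The part of the ovary, pancreas and hepatocyte markers in the sex difference was not tested.

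Averaged over the sexes, diet left *fabp10a* within narrow bounds. The change with 25% maize was -0.06 ± 0.11 on the log2 scale independent of sex (SE, limma, adjusted p = 0.895), with a 95% interval from -0.29 to 0.18, and an exact permutation of the diets within sexes gave p = 0.605. On the 1 array that set 2 female pools side by side (25% maize replicate 4 over 0% maize replicate 1) the log ratio was 0.35, or 0.07 after the dye term of this gene was taken off. The dye term of *fabp10a* was 0.28, whereas it was within 0.05 of 0 for the other 6 genes. Each pool was labelled in both dyes, so that this term balances over a pool's arrays.

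The gut carriers *fabp1b.1* and *fabp2* shared a different pattern, with large differences between pools of 1 group. For *fabp2* the females on 0% maize were at -1.98, -2.23 and -1.12 in replicates 1, 2 and 3. The females on 25% maize were at 0.49, -1.47 and 0.77 in replicates 2, 3 and 4. Replicate 3 of the females on 25% maize therefore lay among the females on 0% maize, and the other two lay above them. The males on 0% maize were at 1.08, 2.38 and 0.95 in replicates 1, 3 and 4, and the males on 25% maize at -0.73, 0.67 and 1.19 in replicates 1, 2 and 3. The order of the means was males on 0% maize (1.47 ± 0.79), males on 25% (0.38 ± 0.99), females on 25% (-0.07 ± 1.22) and females on 0% (-1.78 ± 0.58, SD, n = 3 pools each). Neighbours in this order overlapped in their pools.

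*fabp1b.1* followed the same pools. It was at -1.66, -2.24 and -1.05 in replicates 1, 2 and 3 of the females on 0% maize, and at 0.52, -1.65 and 1.82 in replicates 2, 3 and 4 of the females on 25% maize. The highest of the 12 pools for this gene was thus a female one, replicate 4 on 25% maize. In males it was at 0.91, 1.63 and 0.40 in replicates 1, 3 and 4 on 0% maize and at -0.21, 0.25 and 1.28 in replicates 1, 2 and 3 on 25% maize. The means were 0.98 ± 0.62 in males on 0% maize, 0.44 ± 0.76 in males on 25%, 0.23 ± 1.75 in females on 25% and -1.65 ± 0.59 in females on 0% (SD, n = 3 pools each). Again neighbours in the order overlapped, although the females on 0% maize lay below all male pools.

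Independent of diet, *fabp2* was 3.45-fold lower in females (log2 difference -1.79 ± 0.43, SE, limma, adjusted p = 0.00339, exact permutation p = 0.03). *fabp1b.1* was 2.63-fold lower (log2 difference -1.40 ± 0.50, limma, adjusted p = 0.026), but an exact permutation of the sexes within diets gave p = 0.08. The call for *fabp1b.1* was lost when replicate 2 or 3 of the females on 0% maize, replicate 2 or 3 of the females on 25%, replicate 1 or 3 of the males on 0% or replicate 3 of the males on 25% was left out (adjusted p between 0.0501 and 0.0739). That for *fabp2* held without any 1 pool. The gut carriers passed for sex on 0% maize and not on 25%, and the difference between the feeds itself did not pass, as given in the next paragraph. No array compared females and males of the same feed. The differences on 1 feed therefore rest on the arrays with 2 female or 2 male pools. On 0% maize *fabp2* was 9.08-fold lower in females (limma, adjusted p = 0.00352) and *fabp1b.1* 6.41-fold lower (adjusted p = 0.0167). On 25% maize the log2 differences were -0.39 ± 0.72 for *fabp2* (adjusted p = 0.678) and -0.11 ± 0.82 for *fabp1b.1* (adjusted p = 0.927). These calls on 0% maize did not hold in some fits without 1 pool, which also lack both arrays of that pool. Replicate 1 of the females on 0% maize and replicate 4 of the females on 25% shared the only array with 2 female pools. Replicate 1 of the males on 0% and replicate 3 of the males on 25% shared the only array with 2 male pools. For a pool of the groups compared, its part and that of its lost arrays cannot be told apart. Replicate 4 of the females on 25% and replicate 3 of the males on 25% were not among the pools compared on 0% maize. For these pools, too, the part of the pool was not separated from that of its lost arrays. Without replicate 1 of the females on 0% maize the log2 differences shrank to -1.99 for *fabp2* (adjusted p = 0.188) and -1.47 for *fabp1b.1* (adjusted p = 0.391), and without replicate 4 of the females on 25% maize they were -2.39 (adjusted p = 0.124) and -2.27 (adjusted p = 0.122). *fabp1b.1* also lost its call without replicate 3 of the females on 0% maize (-2.68, adjusted p = 0.0705), and, with a larger difference, without replicate 1 of the males on 0% maize (-3.88, adjusted p = 0.0654) or replicate 3 of the males on 25% maize (-3.68, adjusted p = 0.0938).

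On 0% maize 4 of the 7 genes passed as lower in females, *fabp10a*, *fabp2*, *fabp1b.1* and *fabp4a*, beside 56.9% of all genes in either direction and 25.8% as lower (limma). On 25% maize 2 passed, *fabp10a* and *fabp4a*, beside 39.8% in either direction and 16.5% as lower. Pools of the sexes did not overlap for the same 4 genes on 0% maize (63.1% of all genes) and for the same 2 on 25% maize (61.5% of all genes). Whether the sex difference itself changed with the feed is the interaction of sex and diet. It was 2.79 ± 1.14 on the log2 scale for *fabp2* (SE, limma, unadjusted p = 0.032, adjusted p = 0.498) and 2.57 ± 1.3 for *fabp1b.1* (unadjusted p = 0.074, adjusted p = 0.61). In this comparison 0 of 7 genes and 0% of all genes passed by limma, and 1 of 7 (*fabp2*), beside 598 of all genes or 8.95%, had an unadjusted p under 0.05. Without replicate 1 of the females on 0% maize the interaction was 0.21 for *fabp2* and -0.092 for *fabp1b.1*, and without replicate 1 of the males on 0% maize 5.002 and 5.04. Each of these fits also lacks the only array that compared the feeds directly in the sex of that pool.

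Maize in the feed of females came with 3.88-fold higher *fabp1b.1* (log2 change 1.96 ± 0.81, SE, limma, unadjusted p = 0.0349, adjusted p = 0.279) and 3.26-fold higher *fabp2* (1.70 ± 0.71, unadjusted p = 0.0352, adjusted p = 0.281), neither past the threshold. Without replicate 1 of the females on 0% maize these changes were 0.51 for *fabp1b.1* and 0.29 for *fabp2*, and without replicate 1 of the males on 0% maize 3.01 and 2.56. Each of these fits also lacks the only array that compared the feeds directly in the sex of that pool. For the female pool, its part and that of the lost arrays cannot be told apart. The male pool was not among the pools compared, and its part was not separated from that of its lost arrays either. Both genes were higher in 2 of 3 female pools on 25% maize than in any female pool on 0% maize. In males the values pointed the other way, at -0.62 ± 0.81 for *fabp1b.1* (adjusted p = 0.877) and -1.09 ± 0.71 for *fabp2* (adjusted p = 0.666). The female and male changes run through the same 2 arrays of 1 sex, so their opposite signs are not separate observations. Without replicate 1 of the females on 0% maize the male changes were 0.60 and 0.076. Without replicate 1 of the males on 0% maize they were -2.03 and -2.44. Averaged over the sexes the change was 0.67 ± 0.49 for *fabp1b.1* (adjusted p = 0.584), with a 95% interval from -0.40 to 1.74. For *fabp2* it was 0.31 ± 0.43 (adjusted p = 0.825), with an interval from -0.63 to 1.24. On the array that paired female replicate 4 on 25% maize with female replicate 1 on 0% maize the log ratio was 3.49 for *fabp1b.1* and 2.78 for *fabp2*. On the array that paired male replicate 3 on 25% maize with male replicate 1 on 0% maize it was 0.38 and 0.15, so these ratios follow the pools chosen for the array.

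**Figure D2:**
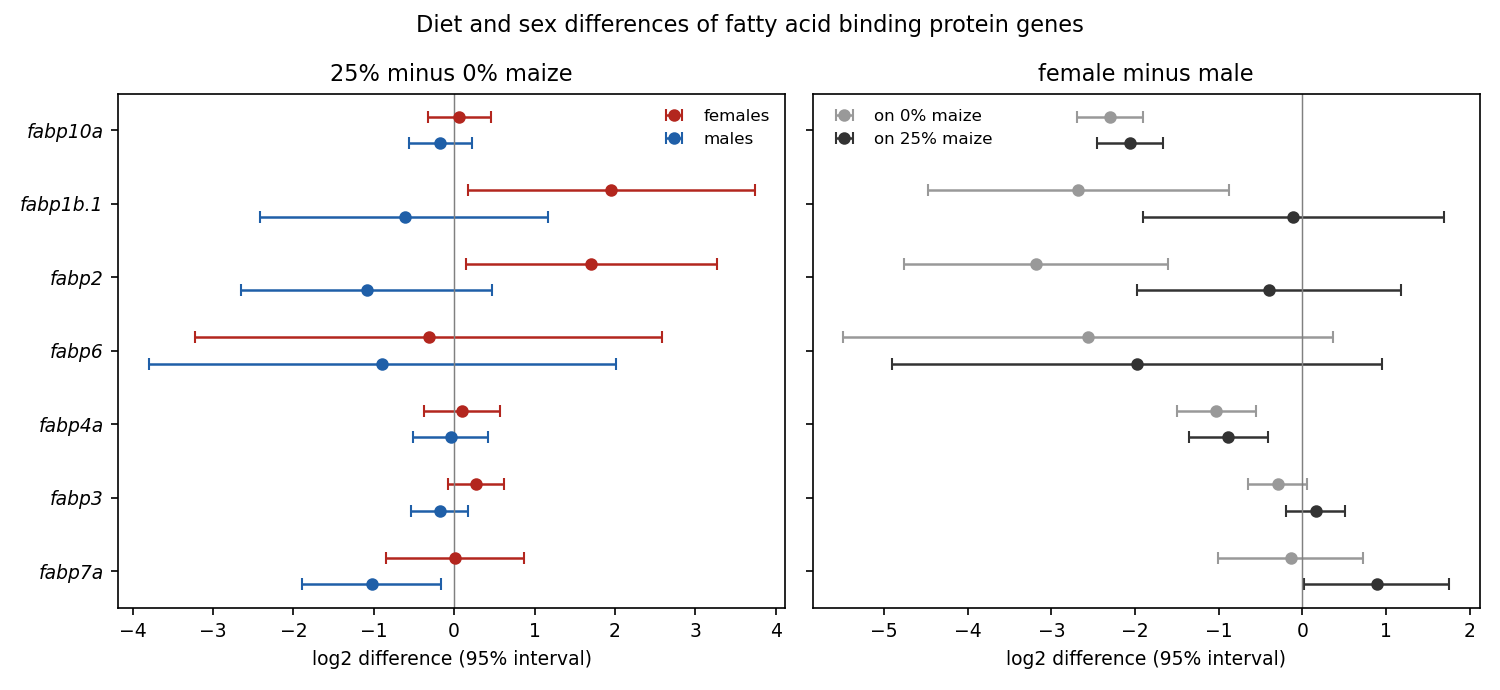
Log2 difference of each fatty acid binding protein gene with 25% against 0% maize in females and in males (left) and between females and males on each maize level (right), as points with 95% intervals from limma. Intervals are narrow for *fabp10a*, *fabp4a* and *fabp3* and wide for *fabp1b.1*, *fabp2* and *fabp6*, and the sex differences of *fabp10a* and *fabp4a* lie below 0 on both feeds.

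The levels of the gut carriers went with those of other gut genes. The mean level of the 21 measured enterocyte genes was -1.16, -1.06 and -0.76 in replicates 1, 2 and 3 of the females on 0% maize and 0.32, -0.85 and -0.10 in replicates 2, 3 and 4 of the females on 25%. It was 0.94, 1.48 and 0.22 in replicates 1, 3 and 4 of the males on 0% maize and -0.21, 0.22 and 0.97 in replicates 1, 2 and 3 of the males on 25%. Replicate 3 of the males on 0% maize was the highest pool and replicate 3 of the females on 25% maize the lowest of its group, as for *fabp2*. The match was less close for *fabp1b.1*, whose highest pool was replicate 4 of the females on 25% maize (1.82), where the list was at -0.10. The Pearson correlation of *fabp2* with this list was 0.95 over the 6 female pools and 0.91 over the 6 male pools, and that of *fabp1b.1* was 0.86 and 0.98. *fabp1b.1* and *fabp2* correlated at 0.97 over the female and 0.92 over the male pools. These are descriptions over pools that share arrays and therefore array error. Whether the gut markers have a part in the differences of *fabp1b.1* and *fabp2* was not tested, and neither was whether the probes of *fabp1b.1* also bind transcripts of *fabp1b.2*.

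The genes whose levels over the 12 pools were most like those of *fabp2* were *tmsb1* (Pearson r = 0.98), *vil1* (r = 0.98) and *apoea* (r = 0.98). *vil1* encodes villin, an actin-bundling protein of the brush border of absorptive cells, *tmsb1* an actin-binding thymosin, and *apoea* an apolipoprotein E. For *fabp1b.1* they were *apoea* (r = 0.98), *tmsb1* (r = 0.93) and the serpin gene *serpinb1l3* (r = 0.92). Within the sexes *fabp2* and *vil1* correlated at 0.96 over 6 female pools and 0.97 over 6 male pools. Such high values were rare for these genes, with 0.539% of all genes above 0.9 for *fabp2* and 0.105% for *fabp1b.1*. *vil1* was at -1.64, -1.52 and -1.15 in the females on 0% maize and at 0.70, -1.20 and 0.15 in those on 25% (replicates in the order given above), which again put replicate 3 of the second group with the first. Its change with maize in females was 1.28 ± 0.52 on the log2 scale (SE, limma, adjusted p = 0.27). Of all enterocyte genes, the chloride and bicarbonate exchanger gene *slc26a3.2* alone passed for diet, at 0.74 ± 0.11 independent of sex (adjusted p = 0.00505) and 1.26 ± 0.18 in females (adjusted p = 0.0166). Neither call held in every fit. Independent of sex 0 of all genes passed with arrays scaled to 1 spread. In females 0 passed in several fits without 1 pool, such as replicate 1 of the females on 0% maize.

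**Figure D3:**
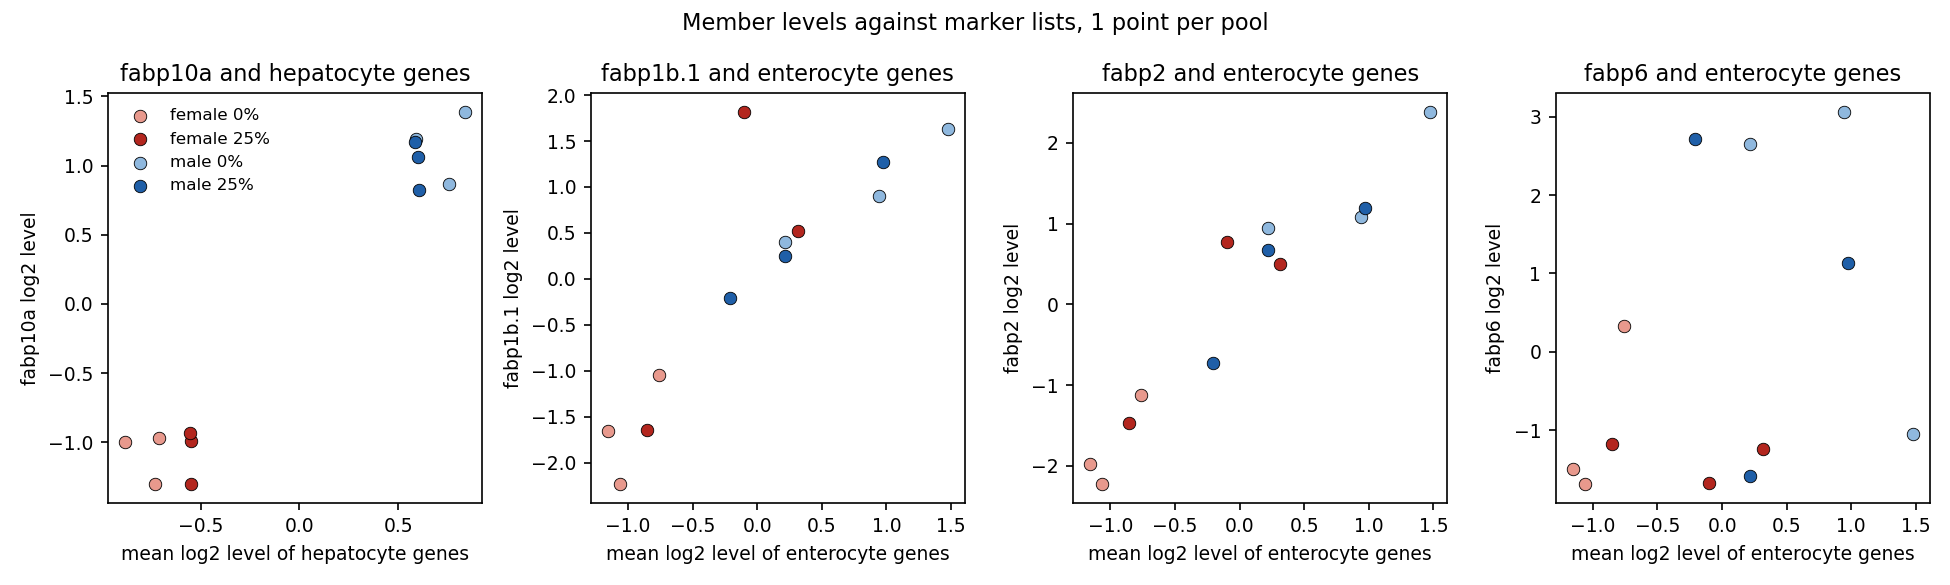
Log2 level of *fabp10a* against the mean level of the hepatocyte genes, and of *fabp1b.1*, *fabp2* and *fabp6* against that of the enterocyte genes, with 1 point per pool. *fabp1b.1* and *fabp2* rise with the enterocyte genes within each sex, *fabp10a* falls into a female and a male cluster, and *fabp6* shows no such order.

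*fabp6*, the ileal bile acid carrier, varied most of all members but in other pools than *fabp2*. Females on 0% maize were at -1.50, -1.69 and 0.33 in replicates 1, 2 and 3, and females on 25% maize at -1.24, -1.17 and -1.67 in replicates 2, 3 and 4. Males on 0% maize were at 3.06, -1.05 and 2.66 in replicates 1, 3 and 4, and males on 25% maize at 2.72, -1.59 and 1.14 in replicates 1, 2 and 3. Thus 4 male pools were above all female pools, whereas replicate 3 of the males on 0% maize and replicate 2 of the males on 25% maize lay within the female range. The means ran from males on 0% maize (1.56 ± 2.26) over males on 25% (0.76 ± 2.18) and females on 0% (-0.95 ± 1.12) to females on 25% (-1.36 ± 0.27, SD, n = 3 pools each), and no neighbours in this order differed beyond their spread.

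*fabp6* was 4.82-fold lower in females (log2 difference -2.27 ± 0.81, SE, limma, adjusted p = 0.0258, exact permutation p = 0.035). Only 0.314% of all genes had a lower sex difference. The call was lost without replicate 1 or 2 of the females on 0% maize, replicate 2 or 4 of the females on 25%, replicate 1 or 4 of the males on 0% or replicate 1 or 3 of the males on 25% (adjusted p between 0.0526 and 0.112). Within 1 feed it did not pass, at -2.56 on 0% maize (adjusted p = 0.12) and -1.98 on 25% maize (adjusted p = 0.252). The change with maize was -0.61 ± 0.79 on the log2 scale (limma, adjusted p = 0.814), with a 95% interval from -2.34 to 1.13, so a fall of several fold or a smaller rise lay within the interval at this spread. The change was -0.0094 without replicate 2 of the males on 25% maize and -1.26 without replicate 3 of the males on 0% maize, the male pools with low *fabp6*. *fabp6* rests on 1 probe, and its agreement with a second probe could not be examined.

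Within the sexes *fabp6* did not follow the enterocyte genes, with correlations of -0.06 over 6 female and -0.33 over 6 male pools, nor *fabp2*, with -0.05 and -0.47. The male pool with the highest *fabp2* level, replicate 3 on 0% maize, had a low *fabp6* level, and the male pool with the lowest *fabp2* level, replicate 1 on 25% maize, had a high one. The genes most like *fabp6* were the peptide transporter gene *slc15a2* (r = 0.96 over 12 pools), the tetraspanin gene *tspan34a* (r = 0.96) and the cathepsin gene *ctsl.1* (r = 0.94). *ctsl.1*, which encodes a lysosomal protease, was at 2.94, -0.52 and 4.16 in replicates 1, 3 and 4 of the males on 0% maize and at 3.99, -1.94 and 1.07 in replicates 1, 2 and 3 of the males on 25% maize, with the females between -2.33 and -1.05. The same 2 male pools were thus the low ones for *ctsl.1*. Over the 6 male pools *fabp6* correlated with *slc15a2*, *tspan34a* and *ctsl.1* at 0.95, 0.96 and 0.96, and over the 6 female pools at 0.89, 0.69 and 0.32. Of all genes 0.105% correlated with *fabp6* above 0.9.

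**Figure D4:**
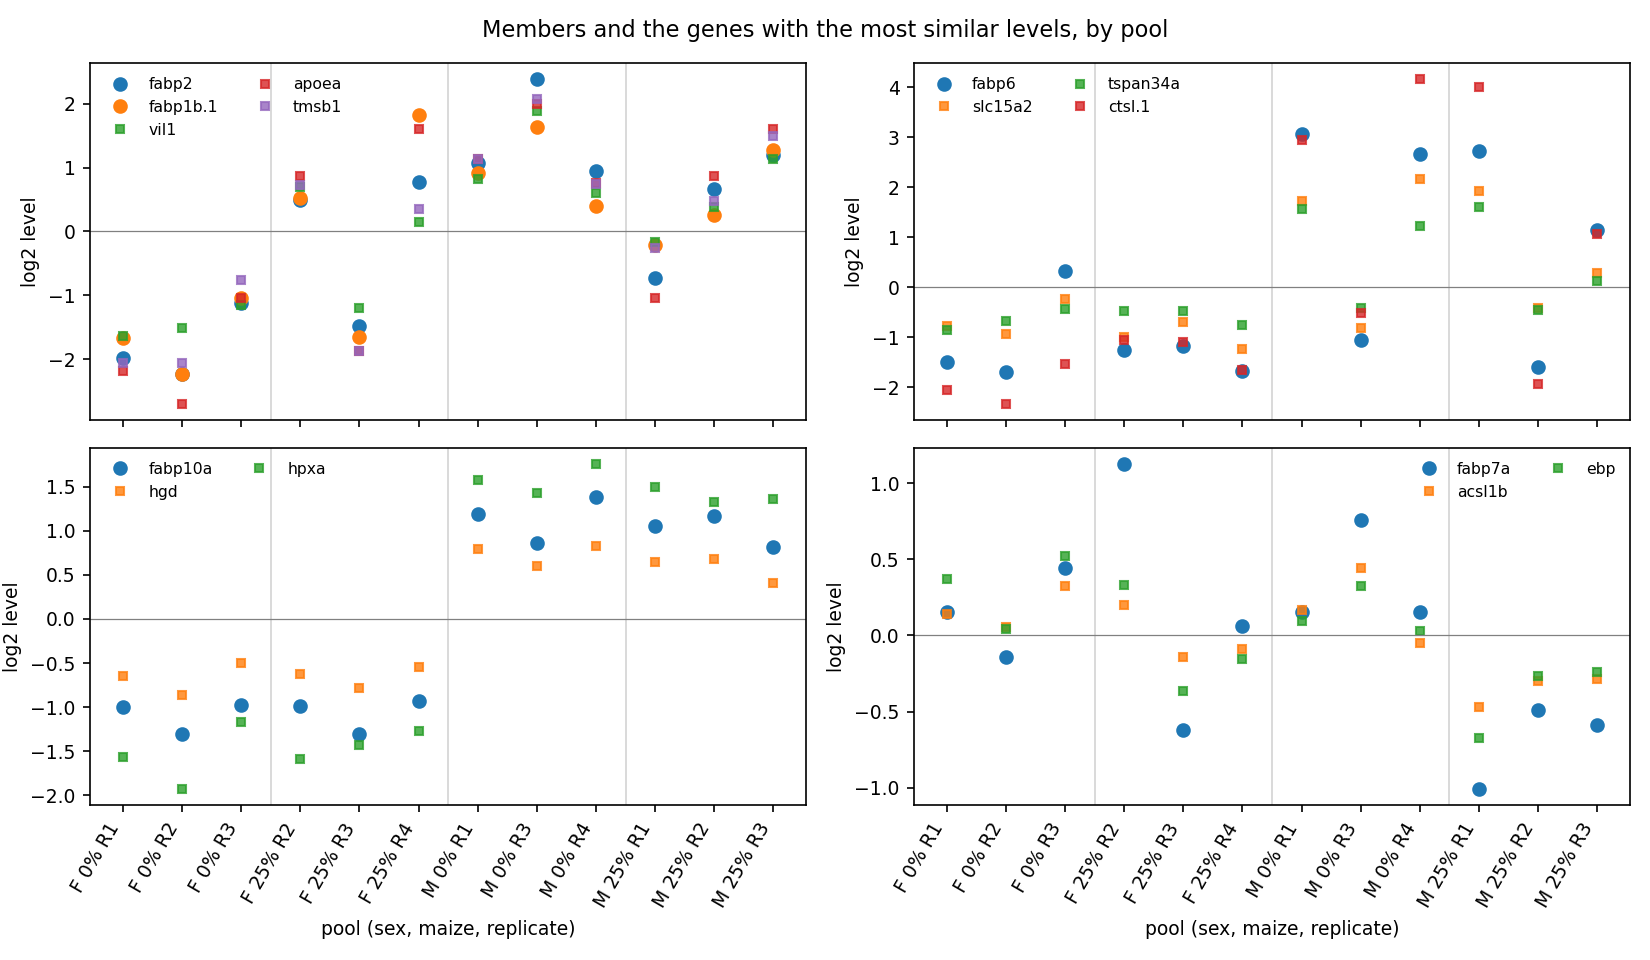
Log2 levels in the 12 pools (F, female; M, male; R, replicate; vertical lines part the groups) of *fabp2* and *fabp1b.1*, *fabp6*, *fabp10a* and *fabp7a* with genes of the most similar levels. *fabp2* and *vil1* are high in replicate 3 of the males on 0% maize, where *fabp6* and *ctsl.1* are low.

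*fabp4a*, related to the adipocyte carrier, also separated the sexes. Females on 0% maize were at -0.61, -0.31 and -0.55 in replicates 1, 2 and 3, and females on 25% maize at -0.53, -0.28 and -0.57 in replicates 2, 3 and 4. Males on 0% maize were at 0.75, 0.02 and 0.63 in replicates 1, 3 and 4, and males on 25% maize at 0.70, 0.53 and 0.23 in replicates 1, 2 and 3. All male pools were above all female pools, the lowest male pool being replicate 3 on 0% maize. Means were 0.49 ± 0.24 in males on 25% maize, 0.46 ± 0.39 in males on 0%, -0.46 ± 0.16 in females on 25% and -0.49 ± 0.16 in females on 0% (SD, n = 3 pools each), so the feeds of a sex did not differ beyond their spread. The gene was 1.94-fold lower in females (log2 difference -0.96 ± 0.13, SE, limma, adjusted p = 7.57e-05, exact permutation p = 0.005, the smallest possible). Both probes passed, at -0.80 (adjusted p = 0.000418) and -1.11 (adjusted p = 3.86e-05), beside 69.5% of all probes in either direction and 34.3% as lower. The call within 25% maize (1.85-fold lower, adjusted p = 0.0093) was lost in 6 of 12 settings that left out 1 pool (adjusted p up to 0.422). These were replicate 1 of the females on 0% maize, replicates 2 and 4 of the females on 25%, replicate 1 of the males on 0% and replicates 1 and 3 of the males on 25%. On 0% maize it was lost without replicate 1 of the males on 0% (adjusted p = 0.105) or replicate 3 of the males on 25% (adjusted p = 0.117). These pools shared the only array with 2 male pools, which both fits lack.

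Diet changed *fabp4a* by 0.03 ± 0.13 on the log2 scale (limma, adjusted p = 0.967), with a 95% interval from -0.25 to 0.31. Of the adipocyte markers 2 were measured, the lipid droplet gene *cidec* and the secreted protease gene *cfd*. *cfd* was lower in females (-1.16 ± 0.12, adjusted p = 1.17e-05), and *cidec* was lower with maize (-0.63 ± 0.16, adjusted p = 0.0472). The *cidec* call was lost with arrays scaled to 1 spread, where 0 of all genes passed for diet independent of sex. The mean of *cidec* and *cfd* was between -0.60 and 0.02 in the female pools and between -0.05 and 0.73 in the male pools, and its part in the *fabp4a* difference was not tested. The genes most like *fabp4a* were *nudt3a* (r = 0.97), a phosphohydrolase gene, *xirp2a* (r = 0.96), an actin-binding protein of muscle, and *nr5a1b* (r = 0.96), a nuclear receptor. They correlated with it between 0.77 and 0.85 over the female and between 0.74 and 0.89 over the male pools. *fabp4a* and *fabp10a* correlated at -0.97 over the 6 female and 0.77 over the 6 male pools, against 0.92 over the 12 pools, which fall into 2 clusters by sex for both genes.

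*fabp3*, the heart-type carrier, was the steadiest member. Its levels were -0.17, -0.41 and 0.01 in replicates 1, 2 and 3 of the females on 0% maize, 0.26, 0.04 and 0.03 in replicates 2, 3 and 4 of the females on 25%, 0.12, -0.04 and 0.35 in replicates 1, 3 and 4 of the males on 0% and -0.26, -0.07 and 0.14 in replicates 1, 2 and 3 of the males on 25%. The SD over the 12 pools was 0.213, against a median of 0.321 over all genes. The sex difference was -0.07 ± 0.10 on the log2 scale (SE, limma, adjusted p = 0.561) and the change with maize 0.05 ± 0.10 (adjusted p = 0.912), with a 95% interval from -0.16 to 0.26. The 3 female pools on 25% maize were above the 3 on 0% (21.8% of all genes did not overlap between these groups), by 0.27 ± 0.16 in the fit (adjusted p = 0.471). The genes most like it were *ndufa4a* (r = 0.93) and *ndufb5* (r = 0.82) of the respiratory chain and *polr2b* (r = 0.91), a subunit of RNA polymerase II.

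*fabp7a*, the brain-type carrier, was the member with the smallest p for diet independent of sex. Its levels were 0.15, -0.14 and 0.44 in replicates 1, 2 and 3 of the females on 0% maize and 1.13, -0.62 and 0.06 in replicates 2, 3 and 4 of the females on 25%. In males they were 0.16, 0.76 and 0.15 in replicates 1, 3 and 4 on 0% maize and -1.01, -0.49 and -0.59 in replicates 1, 2 and 3 on 25%. The male pools on 25% maize were thus all below the male pools on 0%, a separation found for 18.5% of all genes, while the female feeds overlapped. The means were 0.36 ± 0.35 in males on 0% maize, 0.19 ± 0.88 in females on 25%, 0.15 ± 0.29 in females on 0% and -0.69 ± 0.28 in males on 25% (SD, n = 3 pools each). In males the change with maize was -1.02 ± 0.39 on the log2 scale, 2.03-fold lower (SE, limma, unadjusted p = 0.0242, adjusted p = 0.366). In females it was 0.01 ± 0.39, and the interaction was 1.03 ± 0.63 (adjusted p = 0.702), so a difference between the sexes was not shown.

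Independent of sex, *fabp7a* changed by -0.51 ± 0.23 with maize (limma, unadjusted p = 0.0537, adjusted p = 0.302, exact permutation p = 0.17), with a 95% interval from -1.02 to 0.01. Its 3 probes gave changes of -1.11, -0.90 and -1.06 in males, and their levels lay at most 0.50 apart in a pool. The only direct array of males, with replicate 3 on 25% maize and replicate 1 on 0% maize, gave a log ratio of -0.77. The sex difference was 0.38 ± 0.24 (limma, adjusted p = 0.176). The genes most like *fabp7a* were *acsl1b* (r = 0.88), which activates long-chain fatty acids to acyl-CoA, *ebp* (r = 0.88), a sterol isomerase of cholesterol synthesis, and *arf5* (r = 0.81), a small GTPase. Over the 6 male pools *fabp7a* correlated with *acsl1b* at 0.97 and with *ebp* at 0.98. Both genes were picked for their likeness over these and the female pools, and the male pools include both feeds, which did not overlap for *fabp7a*. Their own diet changes are therefore no separate evidence on *fabp7a*. With maize *acsl1b* was lower by the test (-0.36 ± 0.09, adjusted p = 0.0396), and *ebp* was at -0.46 ± 0.12 (adjusted p = 0.0561). The *acsl1b* call was lost with arrays scaled to 1 spread, where 0 of all genes passed for diet independent of sex. *fabp7a* also went with the enterocyte genes within the sexes, at 0.66 over the 6 female and 0.72 over the 6 male pools, and with *fabp2* at 0.53 and 0.86, and the part of the gut markers in its levels was not tested. The only measured gene of the neural and glial markers lay between -0.34 and -0.04 in the female pools and between 0.05 and 0.31 in the male pools, and its part was not tested.

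Within 1 sex, too, no member passed for diet. In females 0 of 7 passed, beside 1.32% of all genes, and 2 of 7 (*fabp1b.1* and *fabp2*) had an unadjusted p under 0.05, beside 15.2% of all genes (limma). In males 0 of 7 passed, beside 0.0299% of all genes, and 1 of 7 (*fabp7a*) had an unadjusted p under 0.05, beside 10.8% of all genes. For *fabp1b.1*, *fabp2* and *fabp6*, changes within the wide intervals given above could not be seen at this spread between pools. For *fabp10a*, *fabp3* and *fabp4a* the intervals independent of sex stayed within 0.31 of 0 on the log2 scale. Within 1 sex they were wider. In females they ran from -0.33 to 0.454 for *fabp10a*, -0.078 to 0.625 for *fabp3* and -0.37 to 0.57 for *fabp4a*. In males they ran from -0.567 to 0.217, -0.533 to 0.17 and -0.515 to 0.425.

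Genes that handle the same lipids before and after the carriers were compared next. Over the 6 lists 80% of the 50 measured genes passed for sex, beside 70.3% of all genes (32% as lower and 38.3% as higher in females). The counts of each list are given as descriptions. Of the measured genes of fatty acid uptake and activation 8 of 11 were lower and 1 was higher in females (median log2 difference -0.50, over all genes 0.05). Among them the scavenger receptor gene *cd36* was at -2.22 ± 0.54 (SE, limma, adjusted p = 0.00339) and the transporter genes *slc27a6* at -1.18 ± 0.08 (adjusted p = 5.75e-07) and *slc27a2a* at -0.96 ± 0.09 (adjusted p = 7.47e-06), while the acyl-CoA synthetase gene *acsl4a* was higher (0.60 ± 0.15, adjusted p = 0.00352). Of the acyl-CoA and sterol carriers 4 of 8 were lower and 1 higher (median -0.17), with *scp2a*, a peroxisomal lipid carrier, at -0.69 ± 0.07 (adjusted p = 1.19e-05). This was a smaller share than over all genes in either direction but a larger share as lower. The retinoid carriers, relatives of the family, were split. *rbp2b* was lower in females (-2.72 ± 0.18, adjusted p = 4.4e-07), as was *crabp1a* (-0.82 ± 0.08, adjusted p = 1.14e-05), and *rbp2a*, also the 1 enterocyte gene that was higher, was higher in females (1.36 ± 0.07, adjusted p = 1.08e-07).

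Of the PPAR and partner receptors 8 of 8 were lower in females (median -0.49), including *pparaa* (-0.88 ± 0.14, adjusted p = 0.000198) and *hnf4a* (-0.67 ± 0.11, adjusted p = 0.000265), a factor that maintains hepatocyte expression. Of the PPAR target genes of lipid use 10 of 14 were lower and 0 higher (median -0.58), with the peroxisomal enzyme gene *ehhadh* at -1.09 ± 0.09 (adjusted p = 3.32e-06) and the mitochondrial *cpt2* at -0.81 ± 0.08 (adjusted p = 1.06e-05). Of the bile acid genes 5 of 6 were lower (median -0.96), with the synthesis enzyme gene *cyp8b1.1* at -1.43 ± 0.09 (adjusted p = 3.94e-07), the exporter subunit gene *slc51a* at -0.91 ± 0.15 (adjusted p = 0.000214) and the ileal-type bile acid transporter gene *slc10a2* at -1.004 ± 0.345 (adjusted p = 0.022). *slc10a2* was not 1 of the 3 genes most like *fabp6*.

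With maize 4 of the 50 measured genes of these 6 lists passed (limma, independent of sex), or 8% beside 4.94% of all genes. The acyl-CoA binding gene *acbd5a* rose by 0.51 ± 0.10 on the log2 scale (adjusted p = 0.0137), the retinol carrier gene *rbp2b* by 0.73 ± 0.17 (adjusted p = 0.0357) and the mitochondrial acyl-CoA dehydrogenase gene *acadvl* by 0.33 ± 0.08 (adjusted p = 0.0396), and *acsl1b* was the 1 that fell. With arrays scaled to 1 spread 0 of all genes passed independent of sex, so these 4 calls did not hold there. In females alone 2 of 50 passed, or 4% beside 1.32% of all genes, and both *rbp2b* (1.58 ± 0.29, adjusted p = 0.0359) and *ehhadh* (0.84 ± 0.15, adjusted p = 0.0359) rose. Both female calls were lost without replicate 1 or 3 of the females on 0% maize or replicate 2 or 4 of the females on 25%. The same held without replicate 1 or 3 of the males on 25%. In each of these fits 0 of all genes passed in females. In males 0 of 50 passed by limma, beside 0.0299% of all genes. The median changes independent of sex were -0.15 for uptake and activation, 0.11 for the carriers, 0.11 for the PPAR and partner receptors, 0.14 for the PPAR target genes and -0.12 for the bile acid genes, beside -0.01 over all genes.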

How the data were processed

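Dye ratios were read from the arrays' deposited values. After scanning and spot quantification the authors used limma (version not stated), and their log ratios, 1 for each probe on each array, were taken as log2, the convention of that package. Log base, background correction, normalization and probe filter were not given in the sources used here. The study's methods count 4 replicates per diet, whereas the labels name 12 pools, which were used. Female and male pools of 1 diet and replicate number came from 1 tank. The estimated tank variance was 0, an equal tank variance was an alternative, and the exact permutations took pools as independent.

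Symbols were updated through RefSeq's gene table (GRCz12tu), for 9007 of 10307 annotated probes by accession, for 976 by current symbol and for 317 by synonym. A gene is the mean of its probes.

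Group terms (sex with diet) and a dye term were estimated by limma 3.58.1 (R 4.3.3) after whitening for the pools that arrays share, with a pool variance of 2.91 times the array error (restricted maximum likelihood over all probes). The Benjamini-Hochberg adjustment ran over all genes, with a threshold of 0.05. Levels of pools were solved around the loop, along which array errors add up. Exact permutations used 400 arrangements. The steps were run on data simulated under the same model, with diet changes alike in both sexes. That run could not test the assumptions of the model. The number of arrays limits the precision.

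The members and gene lists were chosen with earlier results of these data known. Named are all members, the 3 genes most like each in pool level and up to 4 members of a list past the threshold. The named genes of a list were not in every case those with the smallest p. Alternatives are the handling of shared pools and tanks, a replicate block, the dye term, the scaling, centring and weighting of arrays, robust moderation, the summary of probes, and each pool left out. Leaving out a pool also takes out both of its arrays and opens the loop.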

Additional observations from a re-analysis of the deposited data

How the results depend on the processing

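The sex differences of *fabp10a*, *fabp2* and *fabp4a* stayed past the threshold under every alternative, with log2 differences without 1 pool from -2.25 to -2.12, -2.09 to -1.38 and -1.08 to -0.87. With the replicate number as a block 3 genes passed in place of 5, since *fabp1b.1* (-1.35, adjusted p = 0.0612) and *fabp6* (-1.73, adjusted p = 0.0871) did not. Same-numbered pools did not all deviate together (correlations of 0.21, 0.27, -0.12 and 0.18), so the numbers were not taken as a pairing. *fabp1b.1* did not pass either with arrays scaled to 1 spread (-1.23, adjusted p = 0.159) or with array weights (-0.74, adjusted p = 0.223). Without 1 pool it ranged from -1.77 to -0.89 and *fabp6* from -2.93 to -1.60, and the number of members passing from 3 to 5. Of all 6684 genes 4699 passed for sex, against 4243 to 4945 without 1 pool and 4113 to 5235 under the other alternatives. *fabp7a* passed for sex with array weights (0.52, adjusted p = 0.0296) and without replicate 3 of the females on 25% maize (0.62, adjusted p = 0.00591) or of the males on 0% (0.53, adjusted p = 0.034). On 0% maize *fabp1b.1* was at -2.21 with the block (adjusted p = 0.0946), and *fabp6* passed with scaling (-4.39, adjusted p = 0.0189), weights (-3.29, adjusted p = 0.0164) or without replicate 3 of the males on 0% (-3.67, adjusted p = 0.0275). On 25% maize *fabp4a* was at -0.65 with arrays taken as independent (adjusted p = 0.0864) and -0.31 with scaling (adjusted p = 0.366).

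For diet, 1 gene passed in females with array weights (*fabp2*, 1.96, adjusted p = 0.0499), 1 in males with scaling (*fabp7a*, -1.60, adjusted p = 0.0255), and 2 for the interaction with scaling (*fabp4a*, 1.21, adjusted p = 0.0403, and *fabp7a*, 2.12, adjusted p = 0.0448). Scaling set arrays that compare the sexes and arrays that compare the feeds to 1 spread. The median absolute change over all genes was 0.414 for sex, 0.162 for diet in females and 0.136 in males. Scaling can therefore alter the diet contrasts within a sex by itself, and its part in these calls and counts was not tested. Over all genes the diet count of 330 was 1145 with arrays as independent, 107 with a tank variance, 202 without the dye term, 0 with scaling, 1007 with weights and 87 to 542 without 1 pool. The count of 88 in females was 54, 1, 22, 747, 58 and 1005 with independent arrays, the block, no dye term, scaling, centring and weights, and 0 to 373 without 1 pool. That of 2 in males was 8, 4, 0, 1625 and 255 with independent arrays, the block, no dye term, scaling and weights, and 0 to 11 without 1 pool. That of 0 for the interaction was 43, 4, 1864 and 215 with a tank variance, the block, scaling and weights, and 0 to 6 without 1 pool. On 25% maize the sex count of 2663 was 1614 with independent arrays, 1669 with scaling and 210 to 3264 without 1 pool, and on 0% maize that of 3805 was 1026 to 4297.

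Signs turned for differences that were not called. Independent of sex, the diet change was -0.048 for *fabp3* with weights and -0.10 for *fabp4a* with scaling. In females it was -0.039 for *fabp10a* with the block, 0.27 and 1.18 for *fabp6* with independent arrays and scaling, and -0.18, -0.047, -0.048 and -0.018 for *fabp7a* with independent arrays, a tank variance, the block and weights. For single probes of *fabp4a* it was 0.065 in males and the interaction -0.061, and with the block the *fabp6* interaction was -0.014. On 25% maize the sex difference was 0.053, 0.85 and 0.54 for *fabp1b.1* with independent arrays, scaling and weights, 0.51 and 0.14 for *fabp2* with scaling and weights, and 0.037 for *fabp6* with scaling. Without 1 pool the diet change independent of sex ranged from -0.025 to 0.67 for *fabp2*, -0.0056 to 0.12 for *fabp3* and -0.087 to 0.12 for *fabp4a*. For *fabp1b.1*, *fabp6* and *fabp7a*, with no turn of sign, it ranged from 0.20 to 1.14, -1.26 to -0.0094 and -0.74 to -0.30. In females it ranged from 0.51 to 3.01 for *fabp1b.1*, 0.29 to 2.56 for *fabp2*, 0.035 to 0.44 for *fabp3*, -0.031 to 0.21 for *fabp10a*, -0.018 to 0.40 for *fabp4a*, -0.72 to 0.38 for *fabp6* and -0.46 to 0.31 for *fabp7a*. In males it ranged from -2.03 to 0.60 for *fabp1b.1*, -2.44 to 0.076 for *fabp2*, -0.41 to 0.049 for *fabp3*, -0.35 to 0.22 for *fabp4a* and -2.01 to 0.16 for *fabp6*. The interaction ranged from 0.21 to 5.002 for *fabp2*, 0.55 to 1.24 for *fabp7a*, -0.092 to 5.04 for *fabp1b.1*, -0.014 to 0.84 for *fabp3*, -0.23 to 0.75 for *fabp4a* and -0.33 to 1.90 for *fabp6*. The sex difference ranged from -0.12 to 0.021 for *fabp3*, and on 25% maize from -1.56 to 1.16 for *fabp1b.1* and -1.78 to 0.78 for *fabp2*. The causes were not tested. Signal over background was not analysed here, so the limit it sets on weak probes is unknown.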
